A study of Mus musculus with 22 samples.

Results

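Snora81, Snora28, Snora41 and Snora31 are 4 of the 72 H/ACA small nucleolar RNAs (snoRNAs) measured in this mouse series. They were chosen by host gene: Snora81 lies within Eif4a2, Snora28 within Eif5, Snora41 within Eef1b2 and Snora31 within Tpt1, and each feature was found by matching its RefSeq transcript ID to a symbol. The chromosomes of the hosts are 16, 12, 1 and 14, so no pair of the snoRNAs shares a host or a chromosome. All 4 had a value in each of the 22 samples. The measurement was made with a custom nCounter assay, in which colour-coded probes bound to RNA are counted without amplification, and its values are called normalized counts here.

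The samples form 7 groups, and no label gives a strain or genotype beyond the name aMHC-puro of the ESCs at day 0. Spermatogonial stem cells (SSC, n = 4) are the testicular cells that maintain sperm production. The established lines NIH3T3 (n = 3) and RAW264.7 (n = 3) are fibroblasts and macrophages. Embryonic stem cells (ESCs) of a retinoic acid experiment form sets B and A (n = 3 each). Titles and the treatment field assign retinoic acid to set A, whereas sample descriptions give set B as +RA at T=6 and set A as untreated at T=0. The sets were therefore compared as B against A, and which of them was treated is not asserted. Cardiomyocytes at day 16 (n = 3), obtained through embryoid bodies and selected with puromycin, were set against ESCs labelled aMHC-puro at day 0 (n = 3). The assay holds snoRNAs and no marker mRNA of a cell type among its features, so the labelled identities could not be checked. The labels do not tell whether replicates came from different cultures or animals. The p-values therefore cover only variation among these samples, part or all of which may be technical. The descriptions of SSC samples 2, 3 and 4 share a number, so these may be repeats of a single sample. They are kept as separate samples here, and results with the 3 averaged are given where a call changes. Values of a group are listed by the sample numbers of the descriptions, which are 1, 3 and 4 in both sets and 1, 2 and 4 in cardiomyocytes and in day-0 ESCs.

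H/ACA snoRNAs assemble with dyskerin and its partner proteins and guide the conversion of uridine to pseudouridine, mostly in ribosomal RNA. Mammalian guides of this class are usually processed from introns of a host transcript after splicing, so their synthesis starts at the host promoter while their level also depends on processing and stability. Eif4a2 encodes an RNA helicase of translation initiation, Eif5 the factor that stimulates GTP hydrolysis on the initiation complex, and Eef1b2 a subunit of the exchange factor that recharges the elongation factor carrying aminoacyl-tRNA. Tpt1 encodes the translationally controlled tumour protein and is not itself a translation factor. In human catalogues the counterpart of Snora28 is listed as a guide of small-subunit rRNA and that of Snora81 as a guide of large-subunit rRNA.

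The RefSeq table annotates lengths of 164 bases for Snora81, 122 for Snora28, 113 for Snora41 and 112 for Snora31. It lists 5 snoRNA entries within Eif4a2, 2 within Eef1b2 and 1 each within Eif5 and Tpt1. The 150 bases before each annotated host start are shown because an intronic snoRNA is transcribed together with its host. They were taken from RefSeq (GRCm38.p6, plus strand in every case), at chr16:23107318-23107467, chr12:111537951-111538100, chr1:63176681-63176830 and chr14:75845106-75845255. Capitals mark GGGCGG, the core of a GC box, on either strand.
Eif4a2: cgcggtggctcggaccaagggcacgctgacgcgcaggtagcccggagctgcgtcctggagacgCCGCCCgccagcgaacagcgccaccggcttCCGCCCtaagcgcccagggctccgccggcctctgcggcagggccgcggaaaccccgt
Eif5: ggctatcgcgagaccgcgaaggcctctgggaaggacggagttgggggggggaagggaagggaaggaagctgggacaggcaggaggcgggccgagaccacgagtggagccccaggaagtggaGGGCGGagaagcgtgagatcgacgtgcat
Eef1b2: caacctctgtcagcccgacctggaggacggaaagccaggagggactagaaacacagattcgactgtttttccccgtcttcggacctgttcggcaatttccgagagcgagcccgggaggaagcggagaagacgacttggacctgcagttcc
Tpt1: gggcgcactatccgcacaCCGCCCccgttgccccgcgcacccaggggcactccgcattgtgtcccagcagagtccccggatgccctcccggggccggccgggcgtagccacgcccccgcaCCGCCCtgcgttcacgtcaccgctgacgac

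The Eif4a2 and Tpt1 windows hold 2 GC boxes each, the Eif5 window holds 1, and no match lies in the Eef1b2 window. In the same 150-base stretch of all 32851 RefSeq windows the motif is present in 28.6%. Neither TATAAA (7.57% of all stretches) nor CACGTG (4.30%), searched on both strands, was found in those of the 4 hosts. The GC content of the stretches shown was 76% for Eif4a2, 66.7% for Eif5, 58% for Eef1b2 and 75.3% for Tpt1. The median over all 32851 stretches was 54%, so a GC-rich motif is compared here with stretches of lower GC content. These matches describe sequence only.

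The summed normalized counts of a sample lay between 1045169 and 1668320 over the 72 features. Taken as they stand, the normalized counts gave a chi-square per degree of freedom of at least 18.5 between any pair of replicates, so no sample was treated as a repeat deposit of another. Of the 72 features 5 are blank in SSC, NIH3T3 and RAW264.7, and comparisons that include these groups use the other 67. Sample 1 of set B had the highest total of all and the highest value in 18 of the 67 features, among them all 4 snoRNAs described here. In bulk samples, a lower share of cells that express a snoRNA and less of it per cell cannot be told apart.

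The 4 snoRNAs did not share one profile across the 7 groups. Snora81 was highest in SSC and lowest in RAW264.7. Snora28 had its lowest mean in SSC, without a call against set A or day-0 ESCs (limma adjusted p 0.819 and 0.742). By share of normalized counts SSC (2.26% to 2.61%) were not below set A (2.08% to 2.27%). Snora28, Snora41 and Snora31 had their highest mean in set B, for Snora41 and Snora31 through its sample 1. Samples 3 and 4 of set B had 5529 and 5719 for Snora41, below the day-0 ESC mean of 6210. That mean in turn rests on sample 1 of day-0 ESCs (11051, against 4275 and 3302). For Snora31 samples 3 and 4 of set B had 32471 and 26138, beside a RAW264.7 mean of 29732. By group medians set B was also highest for both, with 5719 for Snora41 and 32471 for Snora31. The next medians were 4275 in day-0 ESCs for Snora41 and 29945 in RAW264.7 for Snora31. Snora41 was lowest in NIH3T3 and Snora31 in cardiomyocytes. All 4 passed limma's moderated F-test across the 7 groups after Benjamini-Hochberg adjustment, as did 89.6% of the 67 features. The adjusted p was 3.5e-05 for Snora31, 3.7e-05 for Snora28, 0.0115 for Snora81 and 0.0142 for Snora41. With SSC samples 2, 3 and 4 averaged Snora81 no longer passed (adjusted p 0.0617), and the other 3 did. Within the 4 differentiation groups alone only Snora28 and Snora31 passed, as did 44 of the 67 features. The adjusted p there was 0.944 for Snora81 and 0.159 for Snora41.

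**Figure D1:**
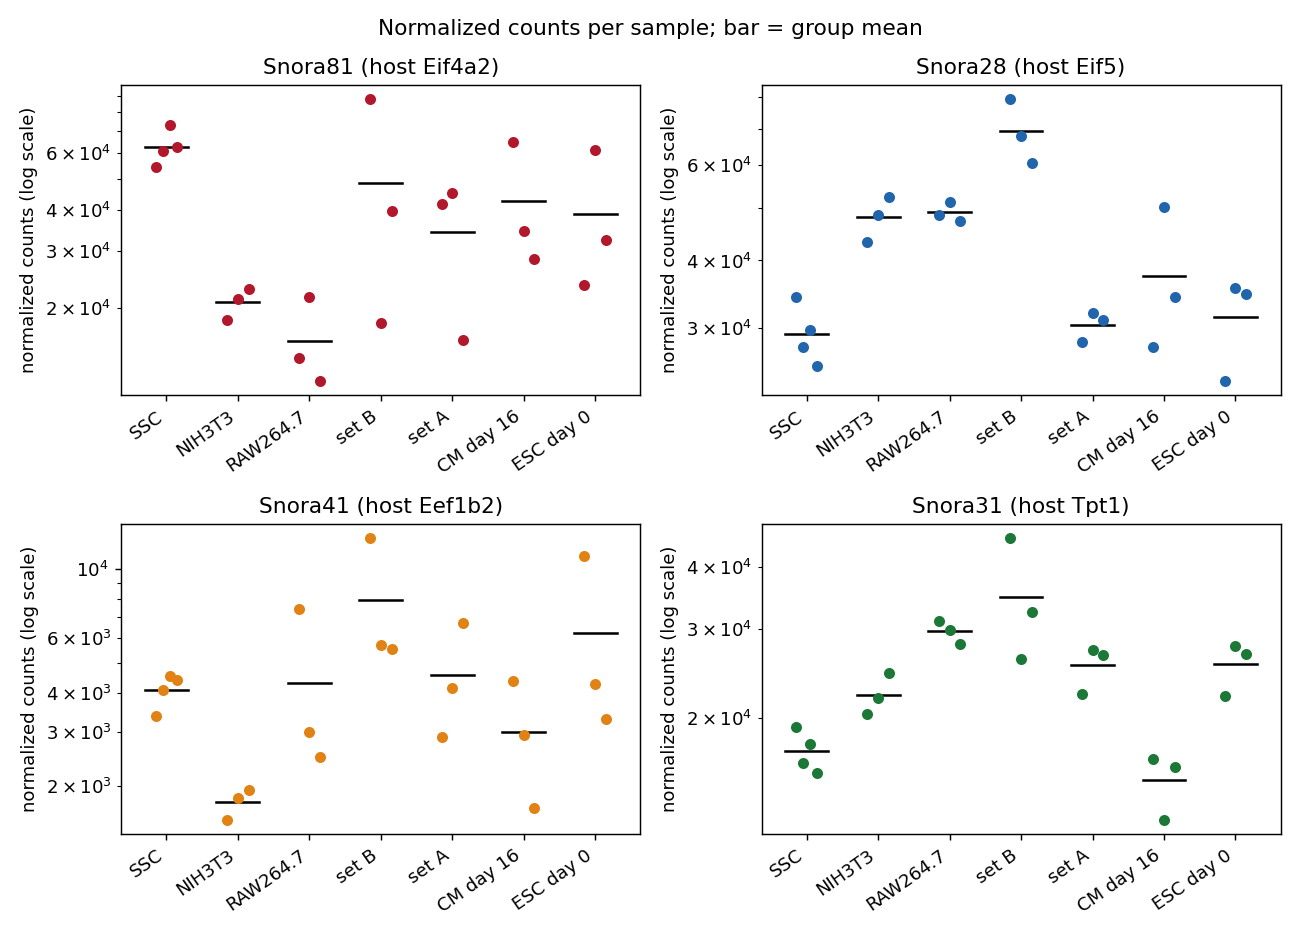
Normalized counts of the 4 snoRNAs in each of the 22 samples, on a log axis, in a panel per snoRNA. Points are samples and bars are group means. The lowest SSC sample of Snora81 is at 54298 and the lowest set B sample of Snora28 at 60468. Snora81 and Snora41 scatter widely within the sets, cardiomyocytes and day-0 ESCs.

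Snora81 had 54298, 61027, 73341 and 62581 normalized counts in the 4 SSC samples. In NIH3T3 the values were 18313, 21246 and 22832, and in RAW264.7 they were 14026, 21566 and 11887. Every SSC sample lay far above every sample of both lines, which overlapped each other. Set B gave 88003, 39634 and 17890, and set A gave 41648, 45121 and 15848. Cardiomyocytes had 64776, 34501 and 28317, against 23507, 61065 and 32295 in day-0 ESCs. In all of these last 4 groups the samples were spread over more than a factor of 2 and the groups overlapped.

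The SSC mean of Snora81 was 62812 ± 7887 normalized counts (SD, n = 4) and the RAW264.7 mean 15826 ± 5085 (SD, n = 3), a ratio of 3.97 that ranked 17 among the 67 features. The median feature spanned 2.54-fold between its extreme group means. Set B followed SSC with 48509 ± 35889, then came cardiomyocytes with 42531 ± 19511, day-0 ESCs with 38956 ± 19645, set A with 34206 ± 15992 and NIH3T3 with 20797 ± 2293 (SD, n = 3 each). No neighbours in this order differed beyond their spread. On the log2 scale SSC exceeded RAW264.7 by 2.03 ± 0.46 (SE, adjusted p 0.00163) and NIH3T3 by 1.59 ± 0.46 (adjusted p 0.00899), with no overlap of samples in either case. Cardiomyocytes exceeded RAW264.7 by 1.38 ± 0.50 (adjusted p 0.0289) and set B exceeded RAW264.7 by 1.37 ± 0.50 (adjusted p 0.0296), although a set B sample lay within the RAW264.7 range. The fifth call was RAW264.7 minus day-0 ESCs, at -1.23 ± 0.50 (adjusted p 0.0495). These SEs rest on a spread shared by all 7 groups. The log2 SD of Snora81 was 1.15 in set B, 0.44 in RAW264.7, 0.18 in SSC and 0.16 in NIH3T3. The SE of set B against RAW264.7 may therefore be too small.

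Snora28 had 34316, 27691, 29795 and 25527 normalized counts in SSC. NIH3T3 gave 43276, 48591 and 52281, and RAW264.7 gave 48564, 51384 and 47222. The lines overlapped each other and lay above all SSC samples. Set B had 79405, 60468 and 67763, against 28321, 31945 and 31115 in set A. Cardiomyocytes had 27751, 50224 and 34204, against 23982, 35612 and 34718 in day-0 ESCs. Set B stood above all 19 other samples, while cardiomyocytes overlapped day-0 ESCs and reached the values of the lines in 1 sample.

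The set B mean of Snora28 was 69212 ± 9551 normalized counts and the SSC mean 29332 ± 3752, a 2.36-fold range that ranked 41 of 67. RAW264.7 averaged 49057 ± 2125, NIH3T3 48049 ± 4527, cardiomyocytes 37393 ± 11571, day-0 ESCs 31437 ± 6472 and set A 30460 ± 1898. The step between set B and RAW264.7 was the only one between neighbouring means that passed, for any of the 4 snoRNAs (log2 difference 0.49 ± 0.19, SE; adjusted p 0.0446). SSC lay below RAW264.7 by a log2 difference of -0.75 ± 0.18 (adjusted p 0.00234) and below NIH3T3 by -0.72 ± 0.18 (adjusted p 0.00328). RAW264.7 and NIH3T3 in turn exceeded both set A and day-0 ESCs, with log2 differences of 0.63 to 0.69.

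Snora41 had 3379, 4082, 4536 and 4390 normalized counts in SSC. NIH3T3 gave 1563, 1828 and 1953, and RAW264.7 gave 7450, 2987 and 2492. NIH3T3 was low and tight, and a single RAW264.7 sample stood well above the other 2. Set B had 12614, 5529 and 5719, against 2882, 4153 and 6703 in set A. Cardiomyocytes had 4372, 2927 and 1704, against 11051, 4275 and 3302 in day-0 ESCs. Sample 1 of set B and sample 1 of day-0 ESCs stood far above the rest of their group, and all 4 of these groups overlapped except set B with cardiomyocytes.

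The set B mean of Snora41 was 7954 ± 4037 normalized counts and the NIH3T3 mean 1781 ± 199, a 4.47-fold range that ranked 13 of 67. Between them lay day-0 ESCs with 6210 ± 4221, set A with 4580 ± 1946, RAW264.7 with 4310 ± 2731, SSC with 4097 ± 515 and cardiomyocytes with 3001 ± 1336. No neighbouring means differed beyond their spread. Of the 5 pairs of groups that passed, 4 involved NIH3T3, which was below set B, SSC, day-0 ESCs and set A. The log2 difference was 2.05 ± 0.48 for set B minus NIH3T3 (SE, adjusted p 0.00184) and 1.20 ± 0.45 for SSC minus NIH3T3 (adjusted p 0.0343).

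Snora31 had 19166, 16249, 17700 and 15500 normalized counts in SSC. NIH3T3 gave 20300, 21917 and 24488, and RAW264.7 gave 31195, 29945 and 28056. These 3 groups were separated from each other, SSC lowest and RAW264.7 highest. Set B had 45659, 32471 and 26138, against 22240, 27332 and 26698 in set A. Cardiomyocytes had 16553, 12516 and 15942, against 22077, 27815 and 26736 in day-0 ESCs. Cardiomyocytes lay below every sample outside SSC, and set B overlapped set A through its lowest sample.

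The set B mean of Snora31 was 34756 ± 9959 normalized counts and the cardiomyocyte mean 15004 ± 2176, a 2.32-fold range that ranked 43 of 67. RAW264.7 averaged 29732 ± 1580, day-0 ESCs 25543 ± 3049, set A 25423 ± 2775, NIH3T3 22235 ± 2112 and SSC 17154 ± 1623. The smallest step was that between day-0 ESCs and set A, with a log2 difference of 0.0056 ± 0.17 (SE, adjusted p 0.992). Cardiomyocytes were below set B by a log2 difference of -1.18 ± 0.17 (adjusted p 3.3e-05), below RAW264.7 by -0.996 ± 0.17 (adjusted p 0.000165) and below NIH3T3 by -0.57 ± 0.17 (adjusted p 0.0115). SSC were below RAW264.7 (-0.80 ± 0.16, adjusted p 0.000663), set A (-0.57 ± 0.16, adjusted p 0.00832) and day-0 ESCs (-0.57 ± 0.16, adjusted p 0.00787). By share of normalized counts SSC (1.33% to 1.48%) overlapped day-0 ESCs (1.36% to 1.79%). The SSC shares lay below those of set A (1.63% to 1.95%) and RAW264.7 (1.95% to 2.18%).

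Over all 21 pairs of groups, Snora28 passed in 12, Snora31 in 10, Snora41 in 5 and Snora81 in 5, in the fit that adjusted 1407 tests together. Of all 1407 tests 47% passed, so the 32 of 84 for the 4 snoRNAs is below that share. In 40 of the 84 the samples of both groups did not overlap, against 56.7% of all 1407, and 31 both passed and did not overlap. With SSC samples 2, 3 and 4 averaged 27 of the 84 passed. The calls lost were Snora41 for SSC against NIH3T3 (adjusted p 0.129), Snora31 for SSC against set A (0.05005), Snora28 for set B against RAW264.7 (0.0558), Snora41 for NIH3T3 against set A (0.0522) and Snora81 for RAW264.7 against day-0 ESCs (0.0726). The set B samples of Snora81 overlapped those of RAW264.7 in the remaining call.

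The spread within groups divided the 4 snoRNAs into 2 and 2. The pooled within-group SD was 0.65 for Snora81 and 0.63 for Snora41 on the log2 scale, ranks 5 and 6 of 67. It was 0.23 for Snora28 and 0.21 for Snora31, ranks 42 and 47, against a median of 0.27 over all features. Snora81 had the largest SD of any of the 67 features in set A, and Snora41 had the largest in day-0 ESCs. In SSC and NIH3T3, by contrast, the highest sample of each of the 4 was at most 1.35-fold the lowest, and their SDs ranked between 23 and 57. In set B the highest Snora81 sample was 4.92-fold the lowest.

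**Figure D2:**
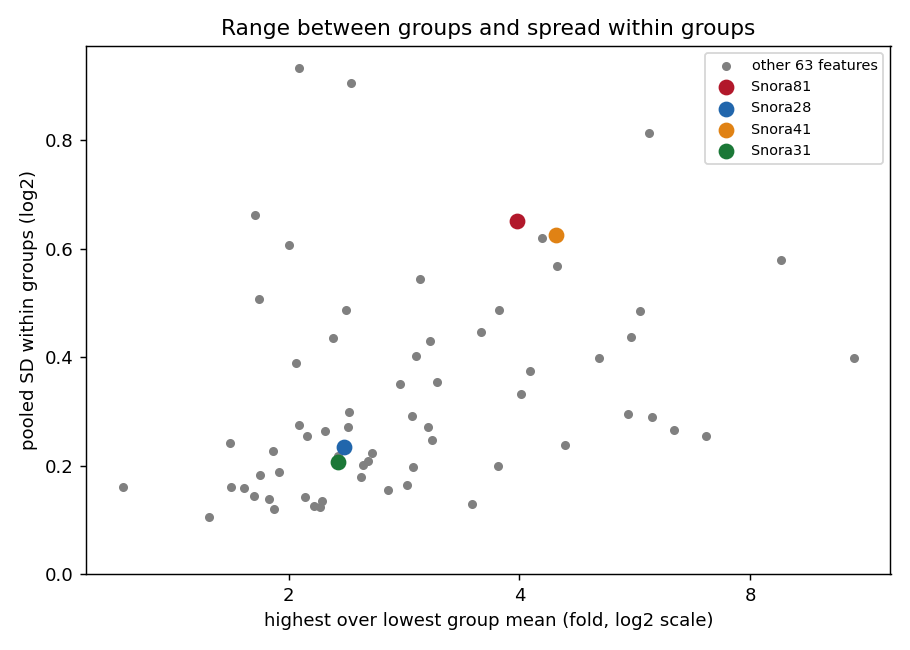
Pooled SD within groups on the log2 scale against the ratio of the extreme group means, on a log axis, for the 67 features without blanks. Snora81 and Snora41 sit high on the spread axis at 0.65 and 0.63, and Snora28 and Snora31 sit at 0.23 and 0.21 with smaller folds of 2.36 and 2.32.

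Set B against set A gave a difference in Snora28, which was 2.26-fold higher in set B by geometric means, with a log2 difference of 1.18 ± 0.14 (SE, n = 3 each, limma adjusted p 0.00161). All 3 set B samples exceeded all 3 set A samples. It was 1 of the 33 features that passed in either direction (45.8% of 72), and 1 of the 21 that were higher (29.2%). Samples did not overlap in 55.6% of the 72 features, and among the 4 snoRNAs in Snora28 alone. Snora28 made up 4.76%, 4.23% and 5.12% of all normalized counts in set B samples 1, 3 and 4, and 2.08%, 2.18% and 2.27% in those of set A. The call held under every alternative run, with log2 differences of 1.07 to 1.33, and without sample 1 of set B it was 1.07 (adjusted p 0.00203).

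The other 3 did not pass. The log2 difference between set B and set A was 0.77 for Snora41 (95% interval -0.36 to 1.91, adjusted p 0.232), 0.42 for Snora31 (-0.16 to 0.99, adjusted p 0.202) and 0.36 for Snora81 (-1.40 to 2.12, adjusted p 0.701). All 3 values rested in part on sample 1 of set B. Without it they were 0.38, 0.20 and -0.22. The intervals hold both no difference and a difference as large as that of Snora28 for Snora41 and Snora81. After each sample was centred on its median, Snora41 passed as well (0.92, adjusted p 0.0399), and with all 7 groups in the fit Snora31 did.

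Cardiomyocytes at day 16 against ESCs at day 0 gave a lower level of Snora31, by a log2 difference of -0.77 ± 0.20 (SE, n = 3 each, limma adjusted p 0.0327), or 1.71-fold. All 3 cardiomyocyte samples lay below all 3 day-0 samples. Of the 72 features 22 passed (30.6%), 21 of them lower in cardiomyocytes (29.2%), and 52.8% had samples that did not overlap. The median difference over all features was -0.51, and totals were lower too, at 1137064 to 1317794 in cardiomyocytes and 1496409 to 1621106 in day-0 ESCs.

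The Snora31 call changed with the scaling of the samples. As a share of all normalized counts, Snora31 was 1.26%, 1.10% and 1.36% in cardiomyocytes and 1.36%, 1.76% and 1.79% in day-0 ESCs. After median centring its log2 difference was 0.045 (adjusted p 0.892), after mean centring -0.28 (adjusted p 0.359) and after quantile normalization -0.056 (adjusted p 0.835). Median centring moved the median difference of all 72 features to 0.30, and the Snora31 value stayed below it. No feature outside the snoRNA class is in the assay. A lower level of most snoRNAs, Snora31 among them, and a difference in the scaling of the samples therefore cannot be told apart here. Leaving out 1 sample at a time kept the difference between -0.87 and -0.65, and the adjusted p was 0.0241 without cardiomyocyte sample 1 and 0.0660 to 0.144 without any other.

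The other 3 snoRNAs did not pass between cardiomyocytes and day-0 ESCs. The log2 difference was -0.95 for Snora41 (95% interval -2.24 to 0.35, adjusted p 0.211), 0.23 for Snora28 (-0.46 to 0.92, adjusted p 0.552) and 0.15 for Snora81 (-0.93 to 1.23, adjusted p 0.823). The Snora41 estimate was the largest of the 4 and also the least precise, since its day-0 samples ran from 3302 to 11051. Snora28 and Snora81 had positive estimates where the median feature was at -0.51.

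**Figure D3:**
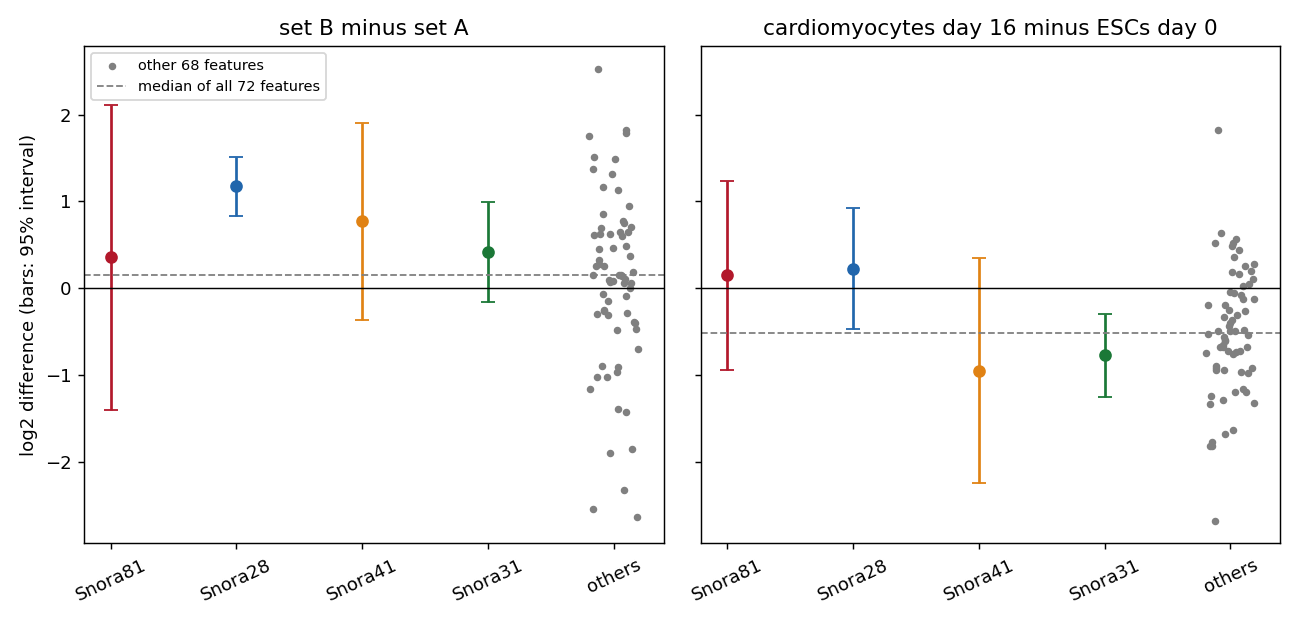
Log2 differences of set B minus set A and of cardiomyocytes at day 16 minus ESCs at day 0, with 95% intervals from limma for the 4 snoRNAs and single values of all other features in grey. The dashed line is the median of all 72 features, 0.16 for the sets and -0.51 for cardiomyocytes. Only the intervals of Snora28 in the sets and of Snora31 in cardiomyocytes leave out 0.

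The 2 differences were also tested against each other, which depends on the direction given to the set effect. With set B minus set A, the set effect minus the cardiomyocyte effect was 1.19 ± 0.30 for Snora31 (log2, SE, adjusted p 0.0291), the only one of the 4 that passed, as did 17 of the 72 features (23.6%), all in the same direction. It was 0.95 ± 0.33 for Snora28 (adjusted p 0.0531), 1.72 ± 0.76 for Snora41 (adjusted p 0.109) and 0.21 ± 0.89 for Snora81 (95% interval -1.77 to 2.18, adjusted p 0.857). With set A minus set B instead, the value was 0.35 ± 0.30 for Snora31 (adjusted p 0.345), 0.18 ± 0.76 for Snora41, -1.41 ± 0.33 for Snora28 (adjusted p 0.00517) and -0.51 ± 0.89 for Snora81. In that direction 39 of the 72 features passed, 24 higher and 15 lower. With set B minus set A the median over all features was 0.64, and no feature passed after median or mean centring or quantile normalization. The adjusted p of Snora31 also rose above the threshold without sample 1 or 3 of set A, sample 1 of set B, or sample 2 or 4 of day-0 ESCs (0.0534 to 0.0856).

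Whether the 4 snoRNAs move together was read from ratios within a sample, which do not change when a sample is scaled as a whole. Across the 7 groups 5 of the 6 ratios differed by the F-test, as did 87.8% of the 2211 ratios of any 2 features. The adjusted p was 7.9e-05 for Snora31 over Snora81, 0.000433 for Snora28 over Snora81, 0.00223 for Snora31 over Snora28, 0.0122 for Snora41 over Snora28 and 0.0431 for Snora31 over Snora41. The ratio of Snora41 to Snora81, the pair with the widest spread, missed the threshold (adjusted p 0.0519). The calls of these last 2 ratios changed when 1 sample was left out: Snora31 over Snora41 ranged from 0.0104 to 0.122 and lost its call in 12 cases, and Snora41 over Snora81 ranged from 0.0139 to 0.111 and passed in 5. A share near that of all pairs is not a result about these 4.

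Between the sets only Snora31 over Snora28 passed, with a log2 difference of -0.76 ± 0.22 for set B minus set A (SE, adjusted p 0.0336), beside 44.7% of 2556 ratios. That value was -0.87 (adjusted p 0.0207) without sample 1 of set B, and the call was lost without any other single sample (adjusted p 0.0640 to 0.124). Between cardiomyocytes and day-0 ESCs no ratio of the 6 passed, nor did any of all 2556 (0%) in limma. Without cardiomyocyte sample 1, 832 of the 2556 and 1 of the 6 passed. At an unadjusted p under 0.05 there were 779 of 2556 and 1 of the 6, again Snora31 over Snora28 (-0.999, 95% interval -1.91 to -0.093, adjusted p 0.139).

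Correlations are given as a description, since the values of a sample share its depth and scaling. Over the 7 group means Pearson's r was 0.60 for Snora28 with Snora31, 0.55 for Snora41 with Snora31, 0.38 for Snora81 with Snora41 and 0.12 for Snora28 with Snora41. It was -0.41 for Snora81 with Snora28 and -0.46 for Snora81 with Snora31. The median of the 6 was 0.25, beside 0.16 over all 2211 pairs of features. Without set B the median fell to -0.17. For Snora28 with Snora31, 20.8% of all pairs had a higher r, and without set B its r was 0.33, with 41.5% of all pairs above it.

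The calls between groups were also compared pair by pair. Snora28 and Snora31 were both called in 4 pairs of groups, all in the same direction, which is 4 of 12 calls for Snora28 and 4 of 10 for Snora31. Snora81 and Snora28 were both called in 4 pairs, 3 of them in opposite directions, and Snora81 and Snora31 in 2 pairs, both opposite. The opposite calls were comparisons with SSC or with RAW264.7, in which Snora81 went one way and the other snoRNA the other way. Snora28 and Snora41 shared 5 calls, 2 in the same and 3 in opposite directions, Snora41 and Snora31 shared 2 and Snora81 and Snora41 shared 1, all in the same direction. Pairs of groups share samples, so these counts are not independent of each other. Shared calls were not counted for other pairs of features, and 47% of all 1407 tests passed. The counts are therefore a description and not a result about these 4.

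Within groups, over the 22 deviations from the group mean, r was 0.59 for Snora81 with Snora31, 0.25 for Snora28 with Snora31, 0.24 for Snora41 with Snora31, 0.14 for Snora81 with Snora28, 0.08 for Snora81 with Snora41 and -0.20 for Snora28 with Snora41. The median was 0.19, beside 0.21 over all pairs. Median centring left Snora28 with Snora31 as the only positive pair, at 0.64, and brought Snora81 with Snora31 to -0.11. For Snora28 with Snora31, 47.4% of all pairs of features had a higher r as deposited and 27.9% after median centring. Snora81 and Snora41, the 2 with the widest spread, were both highest in sample 1 of set B and in sample 1 of cardiomyocytes. In day-0 ESCs Snora81 was highest in sample 2 and Snora41 in sample 1, and in set A Snora81 was lowest in sample 4, where Snora41 was highest.

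**Figure D4:**
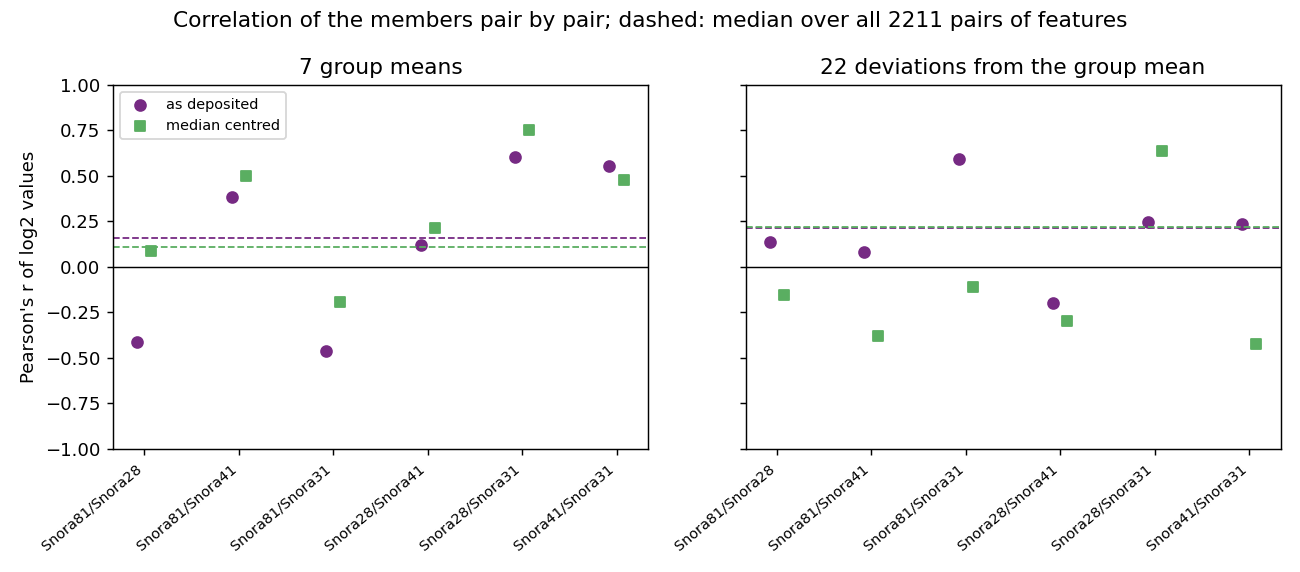
Pearson's r of log2 values for the 6 pairs of the 4 snoRNAs, over 7 group means and over 22 deviations from the group mean, as deposited and after centring each sample on its median. Dashed lines are medians over all 2211 pairs of features. Snora28 with Snora31 is positive in all 4 settings shown, and the other pairs lie on both sides of 0 or change with the centring or the kind of point.

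The features with group means most like those of each snoRNA were as follows, with r over 7 means. Snora81 was nearest to Snora64, hosted in Rps2 (0.90), and to the feature ENSMUST00000083703.1 (0.90). Snora28 was nearest to ENSMUST00000082721.1 (0.80) and to Snora47, hosted in Zbed3 (0.70). Snora41 was nearest to ENSMUST00000083348.1 (0.87) and ENSMUST00000083719.1 (0.67), and Snora31 to Snora69, hosted in Rpl39 (0.88), and Snora3, hosted in Rpl27a (0.87). None of the 4 was among the nearest of another. Within groups, over 22 deviations, r was -0.46 for Snora81 with ENSMUST00000083703.1, its lowest of all features. It was -0.06 for Snora28 with ENSMUST00000082721.1 and 0.18 to 0.94 for the other pairs named here. Each r over means was picked as the highest among all features, and how high such a maximum runs was not tested.

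Within groups the wide scatter of Snora41 and Snora81 was shared with other features, chosen here after their values were seen. Snora41 deviated with ENSMUST00000083348.1 (r 0.94 over 22 deviations) and with Snora3 (0.93), and leaving out any group kept these between 0.91 and 0.98. Snora3 had 29535 normalized counts in sample 1 of day-0 ESCs, against 15637 and 14654 in the other 2, and 28509 in sample 1 of RAW264.7, against 15816 and 15136. These are the samples in which Snora41 stood out. Snora81 deviated with Snora75, hosted in Ncl (0.86, 0.74 to 0.88 without any group), which had 33612, 9133 and 2332 normalized counts in samples 1, 3 and 4 of set B. Whether these pairs share a cause, in the cells or in the assay, was not tested.

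**Figure D5:**
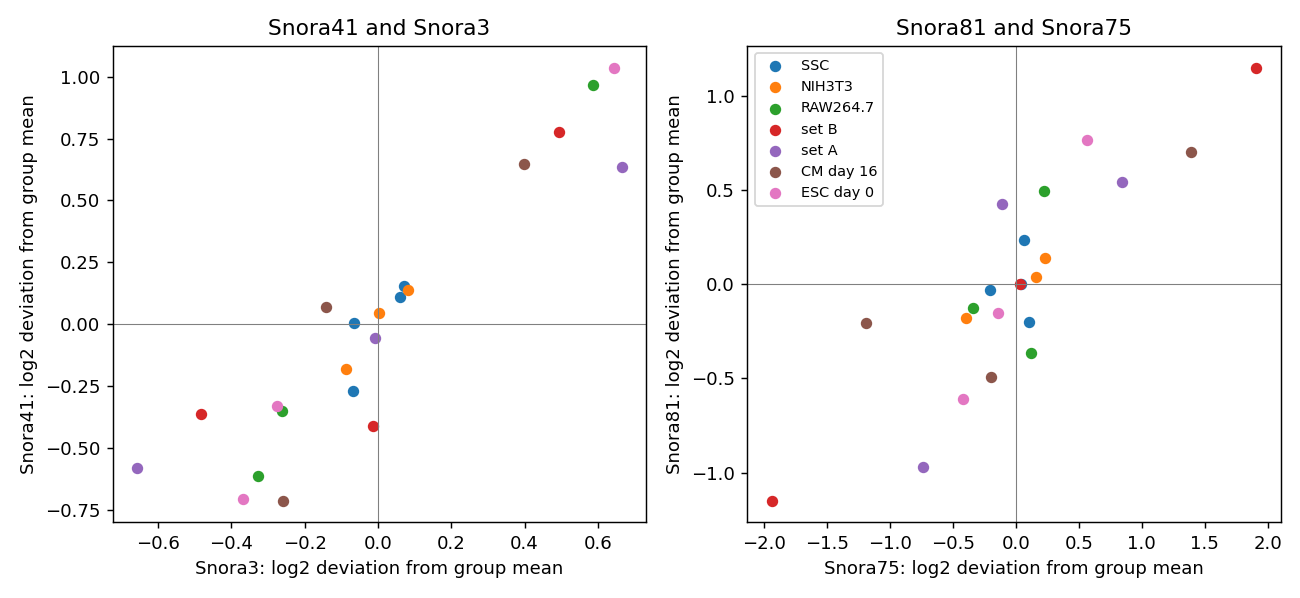
Log2 deviations from the group mean in 22 samples, for Snora41 against Snora3 and for Snora81 against Snora75, coloured by group. Points of the differentiation groups spread along the rising diagonal in both panels, and SSC and NIH3T3 stay close to the centre.

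Other snoRNAs from genes of the translation machinery were counted for comparison. None of the 4 other listed snoRNAs of translation factor genes (Snora48, Snora67, Snora63 and Snora4) is paired with a name in the table used here. Of 13 listed snoRNAs with ribosomal protein hosts 9 were measured, and all 9 passed the F-test, as did 89.6% of the 67 features. Taking hosts from the RefSeq table instead gave 12, of which 10 passed, without Snora65 (adjusted p 0.610) and Snora69 (adjusted p 0.586). Between cardiomyocytes and day-0 ESCs 3 of the 9 passed, all lower. They were led by Snora33 (-1.67 ± 0.43, log2, SE, adjusted p 0.0327) and Snora3 (-1.33 ± 0.34, adjusted p 0.0324). The list had a median of -0.59. Of all 72 features 29.2% were called lower, with a median of -0.51. Of the 12 hosts from RefSeq 3 were, with a median of -0.50. Between set B and set A 3 of the 9 were higher and 2 lower, and so were 3 and 2 of the 12. Of all 72 features 21 were higher and 12 lower. The largest differences were in Snora33 at -1.02 ± 0.24 (adjusted p 0.0193) and Snora52 at -0.96 ± 0.11 (adjusted p 0.0016). These counts are not read as a result about the list.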

How the data were processed

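The authors deposited 1 table of 72 features by 22 samples, a non-negative signal called normalized counts here. The normalization and background treatment behind it were not given in the sources used here. Each feature carries a transcript ID. The RefSeq table (GRCm38.p6) paired 34 with a symbol, and 38 are named by ID. A probe may also bind a near-identical copy of its snoRNA.

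Tests used limma 3.58.1 in R 4.3.3 on log2(value + 1), fitted on all features and adjusted by Benjamini-Hochberg with a threshold of 0.05, two-sided. The 7-group F-test and the 21 pairs used 67 features without blanks. The cardiomyocyte comparison and that of the sets each used their own 6 samples, and the difference of effects 12. Each fit took a single spread per feature over all its groups, so p-values may be too small for widely spread groups. The script was tested on simulated data. Alternatives were a pseudocount of 10, a low-value minimum of 100, median and mean centring, quantile normalization, a replicate block, other sample sets and leaving out samples.

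The members and lists were chosen with earlier results of these data known. Named features are the 4 members, for each the 2 features with the highest r of group means, and per list at most the 2 largest among those called. Snora75, the deviations of Snora3 and the 2 uncalled ribosomal protein snoRNAs were added after their values were seen.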

Additional observations from a re-analysis of the deposited data

Results flagged for a closer look

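The Snora31 difference between set B and set A exceeded that between cardiomyocytes and day-0 ESCs by 1.19 on the log2 scale (limma adjusted p 0.0291), a test of the difference itself. It depends on the direction given to the sets, whose labels contradict each other: with set A minus set B the value was 0.35 (adjusted p 0.345). No group of 4 to 10 samples other than SSC exists here, and in SSC no sample of the 4 snoRNAs stood apart by Dixon's criterion.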

How the results depend on the processing

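All 4 snoRNAs passed the F-test under every leave-one-out setting (59 to 63 features). With SSC samples 2, 3 and 4 averaged 3 passed (58 features), and with only the 4 differentiation groups 2 did (44 features). Cardiomyocytes against day 0 gave 6 features after median centring, 3 after quantile normalization, 8 with a replicate block and 38 with all 7 groups. Mean centring gave 0 (22 at an unadjusted p under 0.05), and leaving out samples 0 to 34. Of the 4 snoRNAs 0 passed under the 3 scalings and the block (0 to 2 unadjusted), and 0 to 1 without a sample. Set B against set A gave 20 features after quantile normalization, 14 with the block, 15 with the block numbered by titles and 17 to 36 without a sample. Of the 4, 2 passed after median centring and with all 7 groups. The difference of effects gave 0 features under median (8 unadjusted), mean (10) and quantile (8) scaling and the block (22), 31 with all 7 groups, 39 with set A minus set B (added after seeing the data) and 1 to 20 without a sample. Of the 4, 0 passed under the scalings and the block, 2 with low values left out, 3 with all 7 groups and 0 to 2 without a sample. Pairs of groups numbered 132 within the first 3 groups and 123 within the last 4 (members 9 and 6), by construction of fewer pairs. Of the 6 ratios 4 to 6 passed across the 7 groups without a sample and 0 to 1 in either comparison (0 to 832 and 693 to 1329 of all 2556), and the block gave 0 in the sets (1 unadjusted).

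Reversed values were 0.045 for Snora31 in cardiomyocytes after median centring, and -0.46, -0.39 and -0.12 for the Snora81 difference of effects under median, mean and quantile scaling. With set A minus set B it was -0.51, and -1.41 for Snora28. Without 1 sample the Snora81 estimate ran from -0.20 to 0.53 in cardiomyocytes, -0.22 to 0.93 in the sets and -0.37 to 0.78 for the difference. Snora28 in cardiomyocytes ran from -0.0066 to 0.42. The ratios ran from -0.45 to 0.56 (Snora31 over Snora41) and -0.26 to 0.62 (Snora28 over Snora81) in cardiomyocytes, and from -0.33 to 0.59 (Snora31 over Snora81) and -0.088 to 1.22 (Snora41 over Snora81) in the sets. The median r over means was 0.040 under quantile normalization and -0.17 without set B. Over deviations it was -0.23 and -0.15 under median and mean centring, 0.00061 without set B and 0.34 without cardiomyocytes. The cause of these changes was not tested.

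Deviations of same-numbered samples correlated at -0.25, -0.24 and 0.30 in cardiomyocytes and day-0 ESCs, and at -0.36, -0.26 and 0.34 in the sets. So few values cannot tell whether same-numbered samples belong together, so the fit with the block is given as well. With the replicate block the adjusted p was 0.0939 for Snora31 in cardiomyocytes and 0.0256 for Snora28 in the sets. The count tests listed as alternatives were not run, since whole probe counts could not be recovered from the values. Raw depth is unknown, and the wide within-group spread limits the estimates of Snora81 and Snora41.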
